A study of Mus musculus with 6 samples.

Results

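The genes that package the sperm nucleus were followed in testes of 3 inbred mouse strains. They are 8 genes: Prm1, Prm2 and Prm3 of the protamine locus, the transition protein genes Tnp1 and Tnp2, the germ cell linker histone genes H1f6 and H1f7, and Brdt. Their probe sets, the groups of short oligonucleotides that each measure a transcript, were taken by annotation alone: every probe set whose platform annotation gives one of these symbols and no other. This gave 14 probe sets, 3 each for Brdt and Prm1, 2 each for H1f7 and Tnp1, and 1 each for the others, among 18193 genes that have a probe set of their own on the array. All 14 passed the filter on dim probe sets, so each of the 8 genes was tested. Whole testes came from untreated MRL/MpJ+/+ (MRL/MpJ below), AKR/N and C57BL/6 mice, all 8 weeks old, with 2 mice and 2 arrays per strain. Signals are intensities on a linear scale, given as deposited; differences between strains are on the scale of log2(intensity + 16), so those of dim probe sets come out too small.

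In late spermatogenesis the histones of the haploid germ cell are largely exchanged, first for transition proteins and then for protamines, small arginine-rich proteins that pack the DNA of the sperm head. Histone acetylation and its reader BRDT come before this exchange, and linker histones particular to germ cells take part in the chromatin of spermatocytes and spermatids. The protamine and transition protein messengers are made in round spermatids and stored there before they are translated in elongating spermatids, so their level in a whole testis reports messenger and not packaged protein.

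Prm1, Prm2, Prm3 and Tnp2 are 4 consecutive genes on mouse chromosome 16, while Tnp1 lies on chromosome 1, Brdt on chromosome 5, H1f6 on chromosome 13 and H1f7 on chromosome 15 (RefSeq, GRCm38.p6). The 100 bases before the annotated start of the 4 clustered genes and of Tnp1 are shown because they hold the protamine and transition protein genes and Prm3, which lies among them. Capitals mark 2 motifs searched on both strands: TGANNTCA, a core of the cyclic AMP response element that CREM and related factors bind, and TATANA, a core of the TATA box. The sequences are from RefSeq, GRCm38.p6, and read 5′ to 3′ on the gene's strand, which is the minus strand for all 5.
Prm1, chr16:10796824-10796923: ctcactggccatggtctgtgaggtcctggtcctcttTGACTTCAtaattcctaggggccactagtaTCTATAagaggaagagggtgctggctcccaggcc
Prm2, chr16:10792106-10792205: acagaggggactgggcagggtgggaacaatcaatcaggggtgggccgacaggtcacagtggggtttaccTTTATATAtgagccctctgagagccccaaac
Prm3, chr16:10790915-10791014: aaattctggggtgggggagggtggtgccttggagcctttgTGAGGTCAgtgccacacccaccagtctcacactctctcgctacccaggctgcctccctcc
Tnp2, chr16:10788656-10788755: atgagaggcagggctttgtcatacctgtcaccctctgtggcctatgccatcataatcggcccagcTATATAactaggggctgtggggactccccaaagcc
Tnp1, chr1:73015900-73015999: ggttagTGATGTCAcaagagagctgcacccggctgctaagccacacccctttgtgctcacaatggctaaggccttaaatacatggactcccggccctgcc

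The TGANNTCA core began 64 bases before the start in Prm1, at position -64, at -60 in Prm3 and at -94 in Tnp1. The TATANA core lay at -34 in Prm1, where it reads on the opposite strand, and at -35 in Tnp2. In Prm2 it lay at both -31, on the opposite strand, and -29, and the 2 matches overlap. Only Prm1 among the 8 genes held both cores, and neither was found in H1f7 or Brdt. H1f6 held TATANA at -45, on the opposite strand, and at -43. Over windows from 250 bases before to 50 bases after the start, 14.1% of 32851 mouse promoters held TGANNTCA and 24.7% held TATANA. A match describes letters and not binding. The promoters are of the reference genome, and the sequences of the 3 strains were not compared here.

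In MRL/MpJ against C57BL/6, 2 of the 14 probe sets were lower and 0 higher at an adjusted p under 0.05 (14.3%, where 10.0% of all 29692 tested probe sets were called). In AKR/N against C57BL/6, 1 was higher and 2 were lower (21.4%, against 9.97% of all). In MRL/MpJ against AKR/N, 0 were higher and 2 lower (14.3%, against 6.91% of all). The F test for any difference between the 3 strains called 3 of 14, where it called 15.1% of all. These counts of 2 or 3 rest on few probe sets, several of which report the same gene, and nothing about the packaging genes is read from the shares. The median difference over the 14 probe sets was -0.15 in MRL/MpJ against C57BL/6, where that of all tested probe sets was 0.01. It was -0.11 in AKR/N against C57BL/6, where all gave 0.0, and -0.06 in MRL/MpJ against AKR/N, where all gave 0.02. Point estimates lay below 0 for 12 of 14 probe sets in MRL/MpJ against C57BL/6, for 9 of 14 in AKR/N against C57BL/6 and for 8 of 14 in MRL/MpJ against AKR/N. Each strain's arrays serve in 2 of the 3 comparisons, so these counts are not independent.

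**Figure D1:**
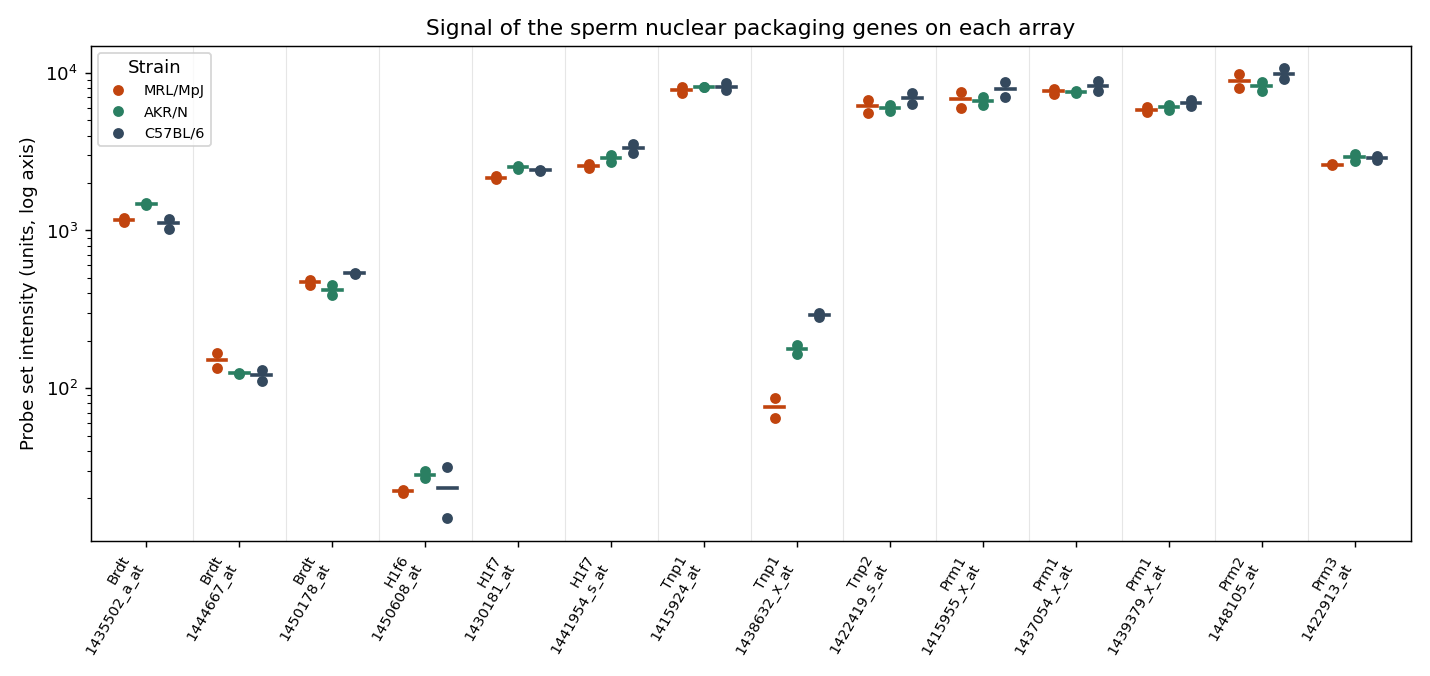
Intensity of each of the 14 probe sets on every array (log axis), by strain with MRL/MpJ left, AKR/N in the middle and C57BL/6 right; points are arrays (1 mouse each) and bars strain means. The strains lie close together for most probe sets; Tnp1 1438632_x_at separates all 3, with means of 75.51 in MRL/MpJ, 176.4 in AKR/N and 292.4 in C57BL/6.

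BRDT is a testis-specific protein with bromodomains that bind acetylated histone H4. Its brightest probe set, 1435502_a_at, read 1197 and 1132 units in MRL/MpJ, 1494 and 1451 in AKR/N, and 1187 and 1029 in C57BL/6. Both AKR/N arrays lay above all 4 others, and the arrays of MRL/MpJ and C57BL/6 overlapped. The difference was 0.41 in AKR/N against C57BL/6 (SE 0.0795, 95% interval 0.23 to 0.58, adjusted p = 0.00863) and -0.33 in MRL/MpJ against AKR/N (interval -0.51 to -0.16, adjusted p = 0.0311). In MRL/MpJ against C57BL/6 it was 0.07 (adjusted p = 0.629). The first call was lost without AKR/N replicate 1 (adjusted p = 0.0738), AKR/N replicate 2 (0.0543) or C57BL/6 replicate 2 (0.0679), and the second without any single array of MRL/MpJ or AKR/N (0.0844 to 0.179).

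A second Brdt probe set, 1450178_at, went the other way in AKR/N. It read 453.0 and 486.3 units in MRL/MpJ, 389.5 and 452.7 in AKR/N, and 528.5 and 541.4 in C57BL/6, so that both C57BL/6 arrays were the highest. AKR/N against C57BL/6 gave -0.34 (SE 0.0921, interval -0.54 to -0.13, adjusted p = 0.0434). This call held under 6 of 15 alternative settings, and without AKR/N replicate 1 the difference was -0.23 (adjusted p = 0.286). Its differences in MRL/MpJ were -0.18 against C57BL/6 (adjusted p = 0.258) and 0.15 against AKR/N (0.4), and the F test missed the threshold (0.0712). The dimmest, 1444667_at, read 133.9 and 167.3 units in MRL/MpJ, 125.5 and 123.4 in AKR/N, and 111.6 and 130.2 in C57BL/6. Both MRL/MpJ arrays were the highest, and the other strains overlapped. None of its differences passed, the largest being 0.28 in MRL/MpJ against C57BL/6 (adjusted p = 0.235).

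The Brdt probe sets therefore gave no single strain order. With the 3 averaged on the log2 scale, AKR/N against C57BL/6 was 0.04 (adjusted p = 0.803) and MRL/MpJ against AKR/N was 0.02 (0.921). The suffix of 1435502_a_at denotes a probe set shared by alternative transcripts of the same gene. On each array the log2 value of 1435502_a_at minus that of 1450178_at was 1.37 and 1.19 in MRL/MpJ, 1.9 and 1.65 in AKR/N, and 1.14 and 0.91 in C57BL/6, highest on both AKR/N arrays. This pair was chosen after its values were seen. Which transcripts each probe set detects was not tested.

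H1f6, the testis linker histone H1t of spermatocytes and early spermatids, had a single probe set close to the floor of the array. It read 21.7 and 22.6 units in MRL/MpJ, 26.8 and 29.8 in AKR/N, and 15.0 and 31.4 in C57BL/6. The 40th percentile of all probe sets lay between 17.8 and 20.8 units on the 6 arrays, and H1f6 exceeded it on 5 of 6. The C57BL/6 arrays alone differed 2.09-fold and enclosed those of both other strains. The difference in MRL/MpJ against C57BL/6 was -0.01, with an interval of -0.57 to 0.56, too wide to show a strain difference of modest size in either direction. AKR/N against C57BL/6 gave 0.21 (adjusted p = 0.686) and MRL/MpJ against AKR/N -0.22 (0.722).

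H1f7 encodes a linker histone that gathers at one pole of the spermatid nucleus and takes part in chromatin condensation. Its brighter probe set, 1441954_s_at, read 2475 and 2640 units in MRL/MpJ, 2733 and 3021 in AKR/N, and 3121 and 3550 in C57BL/6. No array of one strain overlapped another's, in the order MRL/MpJ, AKR/N, C57BL/6. MRL/MpJ was lower than C57BL/6 by a difference of -0.38 (SE 0.0782, interval -0.55 to -0.21, adjusted p = 0.0117). Neither AKR/N against C57BL/6 (-0.21, adjusted p = 0.126) nor MRL/MpJ against AKR/N (-0.17, 0.262) passed, so AKR/N could not be placed apart from its neighbours in that order. The call was lost without MRL/MpJ replicate 1 (-0.33, adjusted p = 0.0858) or C57BL/6 replicate 2 (-0.29, 0.0911).

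The other H1f7 probe set, 1430181_at, read 2112 and 2214 units in MRL/MpJ, 2456 and 2580 in AKR/N, and 2385 and 2430 in C57BL/6. Here both MRL/MpJ arrays were again the lowest, but AKR/N was the highest. Its differences were -0.15 in MRL/MpJ against C57BL/6 (adjusted p = 0.153), 0.06 in AKR/N against C57BL/6 (0.591) and -0.22 in MRL/MpJ against AKR/N (0.063, and 0.0468 with the 60th percentile as the filter). The 2 probe sets thus shared the sign of the MRL/MpJ differences and not that of AKR/N against C57BL/6. The _s_at suffix marks a probe set whose oligonucleotides match more than 1 transcript.

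Tnp1 encodes transition protein 1, which replaces histones on spermatid DNA ahead of the protamines, and its 2 probe sets gave different pictures. The bright one, 1415924_at, read 7456 and 8152 units in MRL/MpJ, 8072 and 8084 in AKR/N, and 7776 and 8576 in C57BL/6, with all strains overlapping. Its differences were -0.07 in MRL/MpJ against C57BL/6 (interval -0.21 to 0.08, adjusted p = 0.585), -0.02 in AKR/N against C57BL/6 (-0.16 to 0.13, 0.921) and -0.05 in MRL/MpJ against AKR/N (-0.19 to 0.09, 0.743). These intervals are narrow, so a strain difference beyond 0.21 log2 units in either direction lies outside all of them for this probe set. Its signal lies near the upper end of the scale, where it was not tested whether intensity stays in proportion to RNA.

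The dim Tnp1 probe set, 1438632_x_at, had the widest strain differences of the 14. It read 86.4 and 64.7 units in MRL/MpJ, 163.7 and 189.2 in AKR/N, and 282.8 and 301.9 in C57BL/6. The strains did not overlap, and the C57BL/6 mean was 3.87 times that of MRL/MpJ. MRL/MpJ against C57BL/6 gave -1.76 (SE 0.136, interval -2.06 to -1.46, adjusted p = 1.97e-05), and MRL/MpJ against AKR/N gave -1.08 (interval -1.38 to -0.78, adjusted p = 0.000949). Both calls held under all 15 alternative settings. AKR/N against C57BL/6 gave -0.68 (interval -0.98 to -0.38, adjusted p = 0.00982), a call lost without AKR/N replicate 1 (-0.59, adjusted p = 0.0902) or C57BL/6 replicate 2 (-0.64, 0.0766).

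The _x_at suffix of that probe set denotes oligonucleotides that may also match unrelated sequences. On each array its log2 value minus that of 1415924_at was -6.19 and -6.66 in MRL/MpJ, -5.49 and -5.3 in AKR/N, and -4.7 and -4.76 in C57BL/6, a pair chosen after its values were seen. The differences of these values were -1.7 in MRL/MpJ against C57BL/6, -0.67 in AKR/N against C57BL/6 and -1.03 in MRL/MpJ against AKR/N, nearly those of the dim probe set alone. Which transcript or strain sequence it measures was not tested. The mean of both Tnp1 probe sets was called in all 3 comparisons, at -0.91 in MRL/MpJ against C57BL/6 (adjusted p = 5.65e-05), -0.35 in AKR/N against C57BL/6 (0.0127) and -0.57 in MRL/MpJ against AKR/N (0.00162), which the dim probe set carries.

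**Figure D2:**
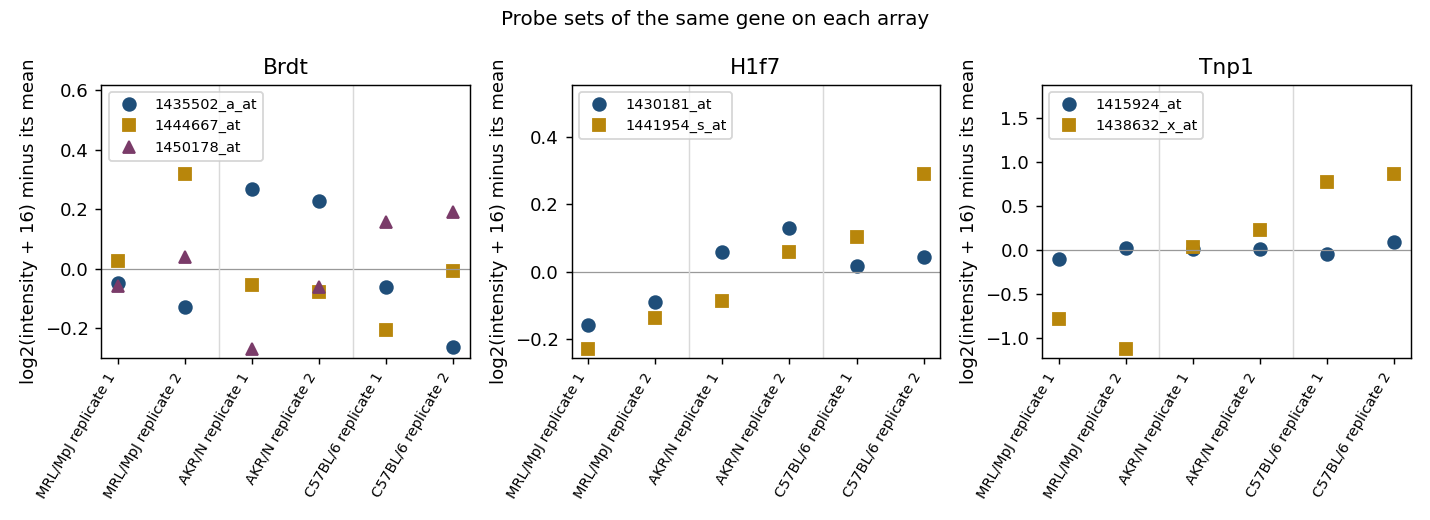
Probe sets of Brdt, H1f7 and Tnp1 on each array, as log2(intensity + 16) minus the mean of that probe set over the 6 arrays; arrays run MRL/MpJ, AKR/N, C57BL/6. For Tnp1 the squares (1438632_x_at) climb from MRL/MpJ to C57BL/6 while the circles (1415924_at) stay near 0, and for Brdt the circles (1435502_a_at) are highest in AKR/N where the triangles (1450178_at) are lowest.

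Tnp2 encodes transition protein 2, a zinc-binding partner of transition protein 1. Its probe set 1422419_s_at read 5568 and 6686 units in MRL/MpJ, 5706 and 6207 in AKR/N, and 6300 and 7498 in C57BL/6. Both AKR/N arrays lay below both of C57BL/6, and MRL/MpJ overlapped each of them. None of its differences passed: -0.17 in MRL/MpJ against C57BL/6 (interval -0.39 to 0.04, adjusted p = 0.32), -0.21 in AKR/N against C57BL/6 (-0.42 to 0.01, 0.229) and 0.04 in MRL/MpJ against AKR/N (0.899).

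Prm1 encodes protamine 1, and its 3 probe sets all gave bright signals, between 5604 and 8906 units. All 3 carry the _x_at suffix, so their oligonucleotides may also match unrelated sequences. The brightest, 1437054_x_at, read 7370 and 7853 units in MRL/MpJ, 7482 and 7700 in AKR/N, and 7704 and 8906 in C57BL/6. The second, 1415955_x_at, read 6021 and 7579 in MRL/MpJ, 6251 and 6976 in AKR/N, and 7062 and 8760 in C57BL/6. The dimmest, 1439379_x_at, read 6035 and 5604 in MRL/MpJ, 6285 and 5844 in AKR/N, and 6177 and 6731 in C57BL/6. In each probe set the highest array was C57BL/6 replicate 2, and the strain means ran lower in both MRL/MpJ and AKR/N than in C57BL/6.

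None of the Prm1 differences passed. In MRL/MpJ against C57BL/6 they ranged from -0.22 (1415955_x_at, adjusted p = 0.282) to -0.12 (1437054_x_at, interval -0.28 to 0.03, adjusted p = 0.327). In AKR/N against C57BL/6 they ranged from -0.25 (1415955_x_at, adjusted p = 0.218) to -0.09 (1439379_x_at, 0.467). In MRL/MpJ against AKR/N the brightest probe set gave 0.0, with an interval of -0.15 to 0.16 (adjusted p = 0.989).

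Prm2 encodes the precursor of protamine 2, which is trimmed after it is laid on DNA. Its probe set 1448105_at read 8032 and 9778 units in MRL/MpJ, 7712 and 8741 in AKR/N, and 9131 and 10660 in C57BL/6. It was the highest signal of all probe sets on 5 of 6 arrays, at the upper end of the scale, where it was not tested whether intensity stays in proportion to RNA. Both AKR/N arrays lay below both of C57BL/6, with a difference of -0.26 whose interval of -0.49 to -0.04 left out 0 but whose adjusted p was 0.135. MRL/MpJ against C57BL/6 gave -0.15 (interval -0.38 to 0.07, adjusted p = 0.39), and MRL/MpJ against AKR/N gave 0.11 (-0.11 to 0.33, 0.618).

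Prm3, despite its name, encodes a small acidic protein of the cytoplasm of elongating spermatids, from a gene that lies between Prm2 and Tnp2. Its probe set 1422913_at read 2610 and 2624 units in MRL/MpJ, 3074 and 2778 in AKR/N, and 2959 and 2798 in C57BL/6. Both MRL/MpJ arrays lay below all others, and those of AKR/N and C57BL/6 overlapped. The differences were -0.14 in MRL/MpJ against C57BL/6 (adjusted p = 0.245), 0.02 in AKR/N against C57BL/6 (0.888) and -0.16 in MRL/MpJ against AKR/N (0.211).

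**Figure D3:**
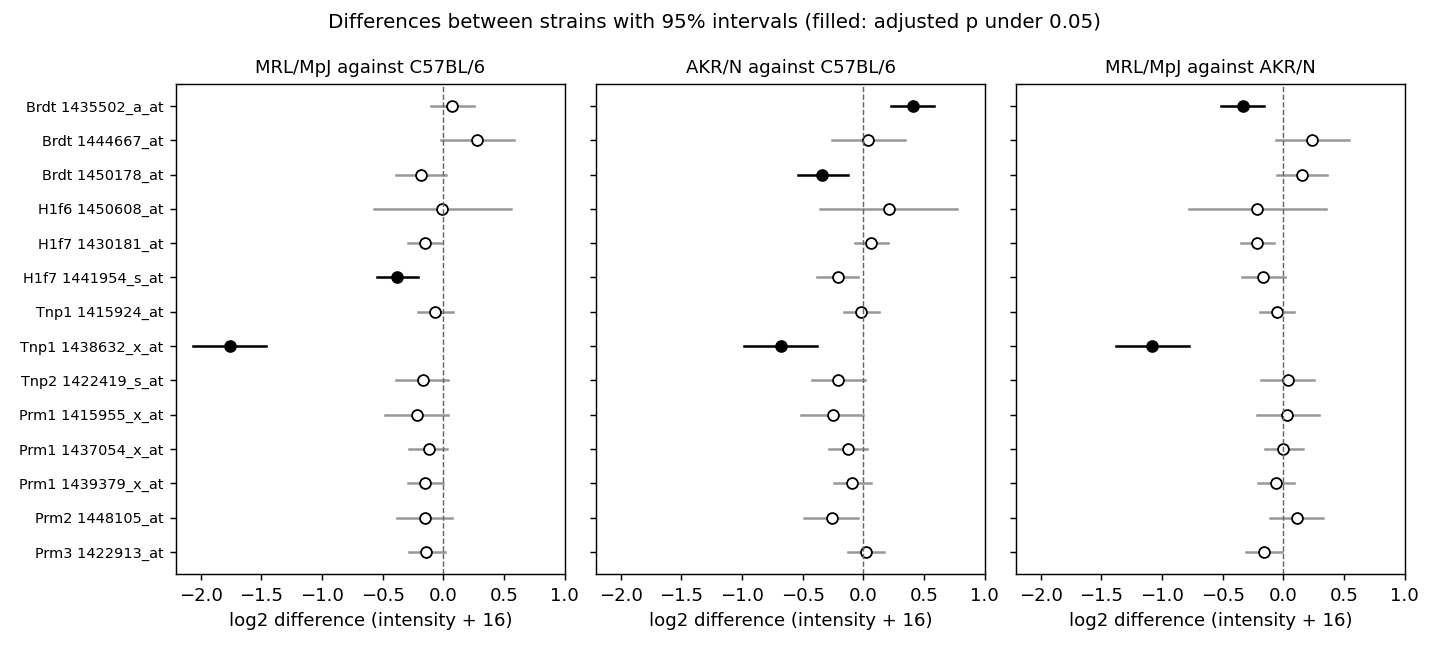
Log2 difference of every probe set with its 95% interval in MRL/MpJ against C57BL/6, AKR/N against C57BL/6 and MRL/MpJ against AKR/N; filled circles have an adjusted p under 0.05. The filled circles are those of Tnp1 1438632_x_at in all 3 panels, H1f7 1441954_s_at in the first, Brdt 1435502_a_at in the second and the last, and Brdt 1450178_at in the second.

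The arrays of a strain did not overlap those of the other strain for 7 of 14 probe sets in MRL/MpJ against C57BL/6 (1 higher, 6 lower), for 9 in AKR/N against C57BL/6 (2 higher, 7 lower) and for 8 in MRL/MpJ against AKR/N (2 higher, 6 lower). Of all tested probe sets, 52.1%, 52.5% and 50.6% did not overlap in these comparisons, so with 2 arrays a strain such separation was common. At an unadjusted p under 0.05 the counts were 4, 5 and 4 of 14, where 24.3%, 23.8% and 20.3% of all probe sets passed.

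Balances between the exchange genes were taken within each array from the brightest probe set of each gene, since array scaling leaves such a difference nearly unchanged. Only differences between strains can be read, since the level of one probe set cannot be set against that of another. The Prm2 value minus the Prm1 value was 0.12 and 0.32 in MRL/MpJ, 0.04 and 0.18 in AKR/N, and 0.24 and 0.26 in C57BL/6. The strains differed in it by -0.03 (MRL/MpJ against C57BL/6), -0.14 (AKR/N against C57BL/6) and 0.11 (MRL/MpJ against AKR/N).

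Tnp2 minus Tnp1 was -0.42 and -0.29 in MRL/MpJ, -0.5 and -0.38 in AKR/N, and -0.3 and -0.19 in C57BL/6, lower on both AKR/N arrays than on those of C57BL/6 by -0.19. Tnp1 minus Prm1 was 0.02 and 0.05 in MRL/MpJ, 0.11 and 0.07 in AKR/N, and 0.01 and -0.05 in C57BL/6. Tnp2 minus Prm2 was -0.53 and -0.55 in MRL/MpJ, -0.43 and -0.49 in AKR/N, and -0.53 and -0.51 in C57BL/6. The strains differed in this last balance by -0.02 (MRL/MpJ against C57BL/6), 0.06 (AKR/N against C57BL/6, and -0.06 after quantile normalization) and -0.07 (MRL/MpJ against AKR/N). No shift of the 4 balances between strains exceeded 0.19 log2 units in size. All 4 balances use very bright probe sets, and it was not tested whether intensity stays in proportion to RNA at such signals. Small shifts in intensity therefore do not show that the RNA ratios were equally stable. The exact two-sided permutation test of 2 arrays against 2 cannot give a p below 0.333, which was its value for Tnp1 minus Prm1 in every comparison, so the balances stand as descriptions.

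The packaging genes were set beside 48 other spermatid marker genes, 24 of round and 24 of elongating spermatids, each by its brightest tested probe set. At that level 12.2% of 14477 genes were called in MRL/MpJ against C57BL/6, 11.9% in AKR/N against C57BL/6 and 8.74% in MRL/MpJ against AKR/N. Of the markers, 15 of 48 were lower and 0 higher in MRL/MpJ against C57BL/6 (median -0.16), 1 was higher and 1 lower in AKR/N against C57BL/6 (median 0.03), and 17 were lower and 0 higher in MRL/MpJ against AKR/N (median -0.2). With MRL/MpJ replicate 1 left out the first count was 4, and with C57BL/6 replicate 1 left out it was 6. The last count was 6 with either MRL/MpJ array left out and 4 with either AKR/N array left out, and with no variance trend the 2 counts were 2 and 1. By its brightest probe set, 1 of the 8 packaging genes was called in each comparison: H1f7 lower in MRL/MpJ than in C57BL/6, Brdt higher in AKR/N than in C57BL/6, and Brdt lower in MRL/MpJ than in AKR/N. In whole testis, fewer cells of a type and less RNA per cell cannot be told apart.

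The median log2 value of the 48 markers was 10.67 and 10.65 on the MRL/MpJ arrays, 10.93 and 10.96 in AKR/N, and 10.98 and 10.82 in C57BL/6. Taken relative to that median, the bright protamine and transition protein probe sets lay higher in MRL/MpJ than in AKR/N, by 0.29 for Prm1 1437054_x_at, 0.39 for Prm2, 0.32 for Tnp2 and 0.23 for Tnp1 1415924_at. Their own differences in this comparison were 0.0, 0.11, 0.04 and -0.05, none of them called, and the marker median itself differed by -0.28. In AKR/N against C57BL/6 the same relative differences were -0.18, -0.32, -0.26 and -0.07, and in MRL/MpJ against C57BL/6 they were 0.11, 0.08, 0.06 and 0.16. H1f7 1441954_s_at was at -0.15 relative to the markers in MRL/MpJ against C57BL/6, less than its own difference of -0.38, and the MRL/MpJ arrays, at 0.61 and 0.72, enclosed the first C57BL/6 array, at 0.64, with the other at 0.99. Tnp1 1438632_x_at stayed apart, at -1.53 in MRL/MpJ against C57BL/6, -0.73 in AKR/N against C57BL/6 and -0.8 in MRL/MpJ against AKR/N. The part of the spermatid signal in these differences was not tested otherwise.

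**Figure D4:**
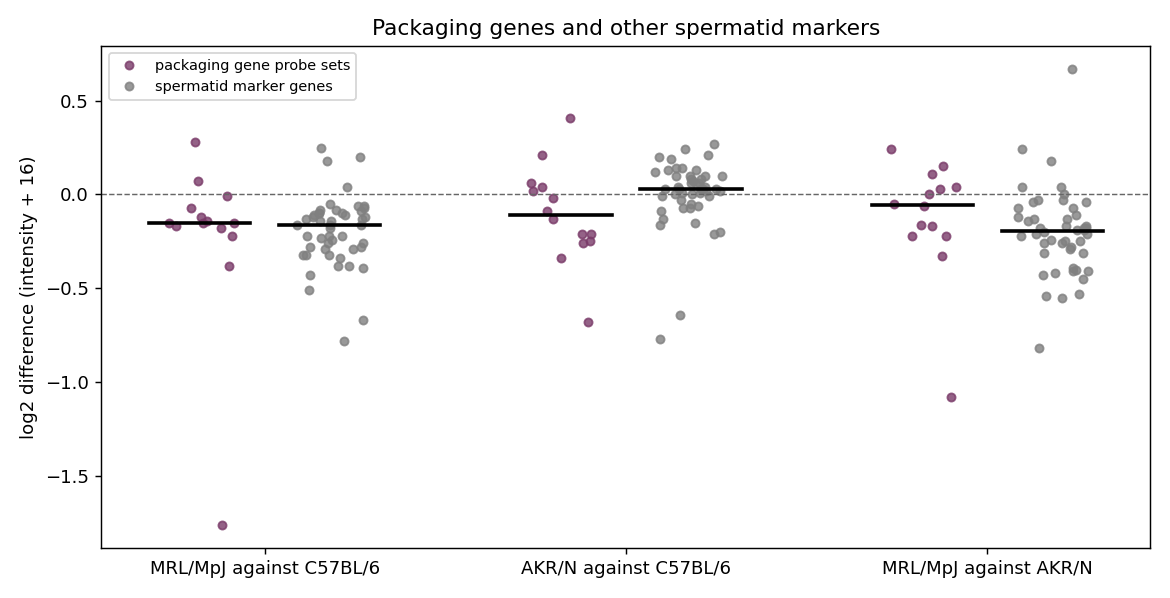
Log2 differences of the 14 packaging gene probe sets and of 48 spermatid marker genes in each comparison; points are probe sets or genes, horizontal offset within a column has no meaning, and bars are medians. The marker medians are -0.16, 0.03 and -0.2, those of the packaging probe sets -0.15, -0.11 and -0.06, and the lowest packaging point in each column is Tnp1 1438632_x_at.

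Markers of other cell types moved as well. The summed signal of 24 round spermatid markers was 31629.4 to 32212.5 units in MRL/MpJ, 37618.4 to 38528.4 in AKR/N and 36164.3 to 38227.8 in C57BL/6. That of 24 elongating spermatid markers was 75614.9 to 81728.9 in MRL/MpJ, 84352.7 to 88406.8 in AKR/N and 87665.1 to 89679.1 in C57BL/6. For 22 spermatocyte markers the sums were 22547.2 to 22681.4 in MRL/MpJ, 20445.2 to 21454.3 in AKR/N and 22546.8 to 22569.3 in C57BL/6. Of these 22, 3 were higher and 5 lower in MRL/MpJ against C57BL/6, 2 higher and 5 lower in AKR/N against C57BL/6, and 7 higher and 1 lower in MRL/MpJ against AKR/N. Sums were thus lowest in MRL/MpJ for both spermatid lists and lowest in AKR/N for spermatocytes.

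Among somatic lists, Leydig cell markers (7 of 10 tested) summed to 6928 to 7123 in MRL/MpJ, 6728 to 7302 in AKR/N and 4451 to 4565 in C57BL/6, and 5 of 7 were higher in MRL/MpJ and 4 of 7 in AKR/N than in C57BL/6. Sertoli cell markers (13 of 15 tested) summed to 13061.5 to 13150.1 in MRL/MpJ, 14934.3 to 15371.0 in AKR/N and 12521.8 to 12691.8 in C57BL/6, with 5 of 13 higher in AKR/N and 1 higher in MRL/MpJ than in C57BL/6, and 4 lower in MRL/MpJ than in AKR/N. Of the 4 tested adipose markers, 2 were higher in MRL/MpJ and 3 in AKR/N than in C57BL/6. Lists of spermatogonia, peritubular muscle, macrophages, endothelium, epididymis and blood had at most 1 called gene in any comparison. Only 3 of 9 epididymis and 3 of 6 blood genes were tested. The 1 call in each of these lists was 33.3% of it in both comparisons with C57BL/6, beside 12.2% and 11.9% of all genes, so these lists are too short to show no change. The part of these shifts in the differences of the packaging genes was not tested.

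Around the packaging genes, other steps of the exchange were described by lists of known genes. In MRL/MpJ against C57BL/6, 7.69%, 11.1%, 9.52% and 6.67% of the lists, in the order below, were called, beside 12.2% of all genes. In AKR/N against C57BL/6 these shares were 23.1%, 5.56%, 9.52% and 0%, beside 11.9%. In MRL/MpJ against AKR/N they were 7.69%, 5.56%, 14.3% and 13.3%, beside 8.74%. The counts are small, and nothing about a list is read from these shares. Of 21 histone variants and linker histones of germ cells, 13 were tested, and in MRL/MpJ against C57BL/6 1 was lower and 0 higher (median -0.12). That gene was H2al2a, which encodes a spermatid H2A variant that works together with transition proteins, at 1792 ± 88.2 units in MRL/MpJ and 2177 ± 68.9 in C57BL/6 (SD, n = 2), a difference of -0.28 (adjusted p = 0.0201). MRL/MpJ lay below AKR/N in it as well (-0.25, adjusted p = 0.0427), where it was again the only one of the 13 called. In AKR/N against C57BL/6, 3 of 13 were lower and 0 higher: H2az1, the H2A.Z variant (-0.4, adjusted p = 0.00513), H2bl1, a germ cell H2B variant (-0.27, 0.0278), and H2al3, a short H2A variant (-0.31, 0.0476). This count was 0 with AKR/N replicate 1 left out and 1 with AKR/N replicate 2 left out, and H2al3 was called under 4 of 15 alternative settings. The H2al2a call against C57BL/6 was lost with MRL/MpJ replicate 1 (adjusted p = 0.137) or C57BL/6 replicate 2 (0.107) left out, and that against AKR/N with any array of either strain left out.

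Of 36 tested genes of histone modification, eviction and chromatin remodelling, 2 were higher and 2 lower in MRL/MpJ against C57BL/6 (median 0.03), 0 higher and 2 lower in AKR/N against C57BL/6 (median -0.02), and 2 higher and 0 lower in MRL/MpJ against AKR/N (median 0.06). Hdac1, a histone deacetylase, read 961 ± 74.9 units in MRL/MpJ, 1057 ± 48.1 in AKR/N and 1467 ± 7.28 in C57BL/6 (SD, n = 2 each). It was lower than in C57BL/6 both in MRL/MpJ (-0.6, adjusted p = 0.000584) and in AKR/N (-0.47, 0.00298, and 0.0853 under 1 of 15 alternative settings). Nutm1, a testis gene whose protein recruits the p300 acetyltransferase in spermatids, was at 116 ± 18.6 in MRL/MpJ and 177.1 ± 13.5 in C57BL/6 (-0.55, adjusted p = 0.03).

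Brd8, a bromodomain subunit of a histone acetyltransferase complex, was higher in MRL/MpJ than in C57BL/6 (0.43, adjusted p = 0.0254) and AKR/N (0.45, 0.0267), with 4 of its 5 other probe sets in the same direction. Top2b, a DNA topoisomerase that relieves supercoils during nuclear condensation, was higher in MRL/MpJ than in C57BL/6 (0.59, adjusted p = 0.0421), but its other probe set had the opposite sign. The histone chaperone gene Asf1b was lower in AKR/N than in C57BL/6 (-0.32, adjusted p = 0.0383). Smarca4, the ATPase of a remodelling complex, was higher in MRL/MpJ than in AKR/N (0.28, adjusted p = 0.0342).

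Of 21 tested genes of transcription in spermatids, 1 was higher and 1 lower in MRL/MpJ against C57BL/6 (median 0.05), 1 higher and 1 lower in AKR/N against C57BL/6 (median -0.04), and 2 higher and 1 lower in MRL/MpJ against AKR/N (median -0.05). Mybl1, the transcription factor A-MYB of pachytene spermatocytes, had the widest difference of any listed gene. It read 461.0 and 412.9 units in MRL/MpJ, 53.9 and 55.8 in AKR/N, and 56.1 and 85.7 in C57BL/6. Its MRL/MpJ values lay far above those of both other strains, and the AKR/N values lay just below those of C57BL/6. The differences were 2.4 against C57BL/6 (adjusted p = 7.44e-06) and 2.67 against AKR/N (4.83e-06), with its other tested probe set in the same direction.

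Fhl5, the testis coactivator ACT of CREM, was lower in MRL/MpJ than in C57BL/6 (-0.21, adjusted p = 0.0408). Camk4, a kinase that phosphorylates protamine 2 in spermatids, was higher in AKR/N than in C57BL/6 (0.49, adjusted p = 0.0115), with 1 of its 2 other probe sets in the same direction. Creb1, a relative of CREM, was lower in AKR/N than in C57BL/6 (-0.47, adjusted p = 0.0424) and higher in MRL/MpJ than in AKR/N (0.69, 0.00948), with 2 of its 4 other probe sets in the same direction in the first comparison and 1 of 4 in the second. Sox5, which has a testis-specific transcript, was lower in MRL/MpJ than in AKR/N (-0.35, adjusted p = 0.0364).

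Of 30 tested genes of storage and translation of spermatid messengers, 1 was higher and 1 lower in MRL/MpJ against C57BL/6 (median -0.02), and 4 were higher and 0 lower in MRL/MpJ against AKR/N (median 0.03). By limma 0 were called in AKR/N against C57BL/6 (median -0.07), with 4 of 30 at an unadjusted p under 0.05, and the brightest were the poly(A)-binding protein gene Pabpc1 (-0.08, adjusted p = 0.538) and the messenger-storage factor gene Ybx1 (-0.14, 0.282). Celf1, an RNA-binding protein gene, was higher in MRL/MpJ than in C57BL/6 (0.4, adjusted p = 0.0107), with 3 of its 4 other probe sets in the same direction. Eif4g3, which encodes a translation initiation factor needed in male meiosis, was lower in MRL/MpJ than in C57BL/6 (-0.27, adjusted p = 0.0242).

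The 4 genes higher in MRL/MpJ than in AKR/N were Tsn, which encodes translin (0.42, adjusted p = 0.0239), Piwil1, the piRNA-binding protein MIWI (0.31, 0.0289), Larp1, a binder of messenger 5′ ends (0.28, 0.0421), and Dazl, a germ cell RNA-binding protein (0.46, 0.0432). The count of 4 was 0 with either MRL/MpJ array or AKR/N replicate 2 left out, and 1 with AKR/N replicate 1 left out. Dazl read 1102 and 1118 units in MRL/MpJ and 935.5 and 688.1 in AKR/N, and its difference was 0.24 (adjusted p = 0.266) with AKR/N replicate 2 left out; it was called under 5 of 15 alternative settings. For Tsn, 2 of its 3 other probe sets went in the same direction. Piwil1 also stands in the spermatocyte list and Dazl in that of spermatogonia. Of the 26 calls named from these 4 lists, 3 held under all 15 alternative settings, those of Mybl1 in both comparisons and of Hdac1 in MRL/MpJ against C57BL/6, and 0 turned in sign. With single arrays left out, these 3 calls and that of Hdac1 in AKR/N against C57BL/6 held each time, and each other call was lost at least once. Leaving out an array also takes residual degrees of freedom from the fit, so a lost call does not by itself show that a difference rests on that array. The Fhl5 difference in MRL/MpJ against C57BL/6 stayed at -0.21 with either AKR/N array left out, though its call was lost.

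For the 3 probe sets called by the F test, the genes with the most similar pattern were sought among 2661 or 2662 other genes called by it. Likeness was the root mean square difference of log2 values over the 6 arrays, each centred on its mean. Nearest to Tnp1 1438632_x_at were 4930512B01Rik (0.169), Uhmk1 (0.18), Hsbp1l1 (0.183), Nemf (0.187) and Trim34a (0.225). In MRL/MpJ, 4930512B01Rik read 19.1 and 3.5 units and Trim34a 2.4 and 4.1, near the floor, where the 16 added before the logarithm shapes the pattern. Nemf, which was brighter, read 161.7 and 172.8 units in MRL/MpJ, 400.9 and 349.7 in AKR/N, and 535.9 and 538.9 in C57BL/6. This is the same order of strains, which a choice by likeness favours. Nearest to H1f7 1441954_s_at were BC048507 (0.026), Paxip1 (0.036), Entpd5 (0.043), Actl7b (0.044) and Prss51 (0.045). Actl7b, an actin-related gene of spermatids and one of the 48 markers, read 2973 and 3331 units in MRL/MpJ, 3511 and 3820 in AKR/N, and 3811 and 4189 in C57BL/6.

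Nearest to Brdt 1435502_a_at were Tex55 (0.013), Pold3 (0.035), Ppp1r32 (0.044), Ddhd1 (0.044) and 4930550L24Rik (0.047). Tex55, named for its testis expression, read 547.8 and 511.6 units in MRL/MpJ, 668.9 and 663.5 in AKR/N, and 541.7 and 461.0 in C57BL/6, with both AKR/N arrays above the other 4. With 6 arrays, likeness of this kind ranks genes and carries no test.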

How the data were processed

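RNA of whole testes was prepared with Trizol and labelled with biotin using a one-cycle kit, per the labels' protocols. The authors deposited linear intensity values per probe set; on each array their mean, with 2% trimmed at each end, was 125.001, and the medians were 28.0 to 30.7. Which software summarised the probes, and whether it made detection calls, is not given in the sources used here. That scaling was kept. Of 45101 probe sets, 64 controls were left out and 29692 were tested (at least 2 of 6 arrays above their 40th percentile). Differences of log2(intensity + 16) were fitted with limma 3.58.1 under R 4.3.3 (functions lmFit, contrasts.fit and eBayes with a variance trend), leaving 3 residual degrees of freedom beside 7.58 from the prior. Benjamini-Hochberg adjustment ran over all tested probe sets. The fit was also run on simulated data drawn from its own fitted variances, which cannot show whether its assumptions hold for these arrays. Gene names are those of the platform annotation, in which 34945 probe sets have 1 symbol, and the brightest tested probe set stood for a gene. Named genes were all 8 packaging genes, up to 4 called genes per list and comparison, by adjusted p (where none was called, the brightest 2), and the 5 nearest in pattern. The genes and lists were chosen with earlier results of these data known. All 8 genes matched the RefSeq promoter table. Across probe sets, correlation within a strain was 0.9845 for MRL/MpJ, 0.9853 for AKR/N and 0.9802 for C57BL/6. The number of arrays limits the precision.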

Additional observations from a re-analysis of the deposited data

How the results depend on the processing

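Alternatives were quantile normalization, median centring, other filters and pseudocounts, no variance trend, only the arrays compared, the replicate number as a block, each array left out, and the mean of a gene's probe sets. Of 639 recomputed differences of the packaging probe sets, 599 kept their side of the threshold, 27 lost and 12 gained a call. Most of the 639 belong to differences that the main fit did not call. It called 2, 3 and 2 of the 14 probe sets in the 3 comparisons, and only those could lose a call, so 599 does not measure how firm the calls are. Brdt 1435502_a_at in MRL/MpJ against AKR/N turned to 0.02 (adjusted p = 0.921) as the mean of its gene's probe sets; differences near 0 that were not called also changed sign under some settings. Without a variance trend, calls over all probe sets numbered 1212 (MRL/MpJ against C57BL/6), 1138 (AKR/N against C57BL/6), 421 (MRL/MpJ against AKR/N) and 1366 (F test), in place of 2975, 2960, 2052 and 4487. Calls of packaging probe sets then numbered 1, 0, 1 and 1. Without a filter, MRL/MpJ against AKR/N gave 1327 calls, 1 of them among the 14, and median centring left 1 there. Centring moved the split in MRL/MpJ against C57BL/6 to 1820 higher and 1183 lower, in place of 1504 and 1471, and in AKR/N against C57BL/6 to 1725 and 1137, in place of 1510 and 1450. With 1 array left out, calls numbered 1483 to 2545, 1290 to 2607, 694 to 2191 and 2698 to 3911 over all probe sets, and 1 to 2, 0 to 2, 1 to 2 and 2 to 3 among the 14, in the same order. The lone array left in a strain is then assumed to vary like the others.

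Over all tested probe sets, same-numbered arrays of different strains deviated together only weakly (correlations 0.0425 to 0.0493). Single probe sets can still do so: Prm1 1415955_x_at, Prm2 and Tnp2 read higher in replicate 2 than in replicate 1 in every strain. Brdt 1435502_a_at read lower in replicate 2 in every strain. Whether the numbers mark a pairing or a batch was not tested. With the replicate block, 5 packaging probe sets were called in MRL/MpJ against C57BL/6, 7 in AKR/N against C57BL/6 and 8 by the F test. Those added were lower: Prm1 1415955_x_at (adjusted p = 0.0172 and 0.00863 in the 2 comparisons with C57BL/6), Prm2 (0.0359 and 0.0023), Tnp2 (0.0425 and 0.0186) and, in AKR/N, H1f7 1441954_s_at (0.022). H1f7 1430181_at was then also lower in MRL/MpJ than in AKR/N (0.0267). Quantile normalization moved Tnp2 minus Prm2 to -0.09 in MRL/MpJ against C57BL/6, in place of -0.02, to -0.06 in AKR/N against C57BL/6, a turn in sign from 0.06, and to -0.03 in MRL/MpJ against AKR/N, in place of -0.07, and Prm2 minus Prm1 in AKR/N against C57BL/6 to -0.05, in place of -0.14. The causes of these changes were not tested. H1f6 lies too near the floor of the signal to show modest differences.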
